A study of Drosophila melanogaster with 35 samples.

Results

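The comparison set Cabut-expressing fly wings against wings expressing E2F1 with its partner DP, both dissected 24h after pupa formation. Its members were the 8 samples of 35 that the titles place in those groups, 4 in each. The Cabut line, here Cbt, carried UAS-Cabut together with apterous-gal4, with UAS-GFP and with tubulin-Gal80temp.sens. The line here called E2F1DP had UAS-dE2F1 and UASdDP in place of UAS-Cabut, and the control strain had the driver, GFP and Gal80 with no further transgene, so all lines carried the driver. Flies were kept at 18 °C and shifted to 28 °C, where the temperature-sensitive Gal80 no longer blocks Gal4. Each sample was total RNA of 10 wings on a 1-colour NimbleGen array, and the same lines were also sampled as wandering larvae (L3) and at 36h. The apterous driver is active in dorsal wing cells, so each extract mixed cells with and without the transgene, and in such bulk samples fewer cells of a type and less RNA per cell cannot be told apart.

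E2F1 with DP is the activating pair of the E2F family, which turns on genes of DNA replication and of the cell cycle. Cabut is a zinc finger protein of the Krüppel-like family. In the pupal wing the epithelial cells stop dividing and then build wing hairs and cuticle, and overexpressed E2F is known to delay that exit from the cell cycle. The question the series names is how expression in the wing compares when one or the other factor is overexpressed.

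Transcript levels are log2 values of RMA intensities, so a difference of 1 is a change of 2-fold. The arrays identify transcripts by FlyBase ID. Of 15473 IDs, 17 were tied to 1 gene and 27 to several genes through synonyms in a RefSeq gene table. The 27 are transcripts listed under a main reading frame and 1 or more upstream frames, and each is named here by all of its genes, main frame first. No ID was tied to the genes of E2F1, DP or Cabut, or to any marker gene of wing epithelium, blood cells, muscle, neurons, glia, fat body or trachea, so the labels could not be checked on these genes. Sequences were not analysed here. Array medians in the 8 samples lay between 9.25 and 10.02. E2F1DP replicate 3, whose median was the lowest at 9.25, varied around its group mean with an SD of 0.682, against 0.325 to 0.470 for the other E2F1DP arrays and 0.333 to 0.403 for the Cbt arrays. Control replicate 3, with an SD of 0.655 and a median of 9.28, stood apart too. The pair correlated at 0.9557, within the 0.9555 to 0.9626 of E2F1DP replicate 3 with the other arrays of its group. Values without E2F1DP replicate 3 are given for the place in development, the counts of the main comparison and the sets by control development. They are also given where leaving it out ended the call of a named transcript.

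On a scale set by control development, Cbt arrays of 24h lay further along than E2F1DP arrays of the same age. Each array was projected on the line that joins the mean control profile at L3 (place 0) to that at 36h (place 1), which uses no array of 24h. The projection takes in all transcripts. On it, a difference in stage and transgene effects on transcripts that change in development cannot be told apart. The Cbt arrays lay at 0.595, 0.544, 0.515 and 0.620, and the E2F1DP arrays at 0.309, 0.349, 0.295 and 0.370. The control arrays of 24h lay at 0.698, 0.668, 0.674 and 0.715. The groups do not overlap: every Cbt array lay above every E2F1DP array and below every control array. The means were 0.569 ± 0.0477 in Cbt and 0.331 ± 0.0346 in E2F1DP (SD, n = 4 each), a difference of 0.238 (two-sided exact permutation test, p = 0.0286, the smallest that 4 against 4 arrays can give). Without E2F1DP replicate 3 the difference was 0.226 (exact p = 0.0571, the smallest possible for 4 against 3).

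**Figure D1:**
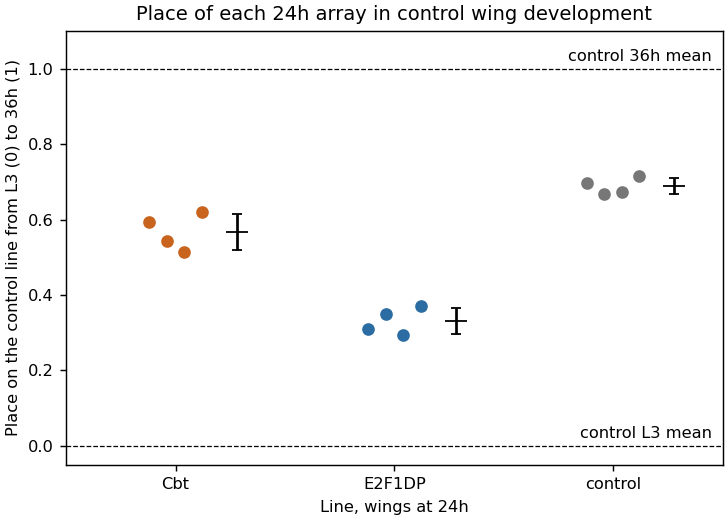
Place of each wing array of 24h on the line from the control mean at L3 (0) to the control mean at 36h (1), without unit, for Cbt, E2F1DP and control. Points are arrays, and bars are the mean with its SD. The Cbt arrays, between 0.515 and 0.620, lie above all E2F1DP arrays, which lie between 0.295 and 0.370.

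Of all transcripts tested, 2237 had higher and 1378 lower levels in Cbt than in E2F1DP wings (limma, adjusted p under 0.05 over all transcripts), which is 14.5% and 8.91% of those tested and 23.4% together. Among them, 1121 were higher and 562 lower by at least 2-fold. The groups did not overlap for 1629 of the higher and 1031 of the lower calls, while over all transcripts 20.1% had groups without overlap. Calls were fewest among dim transcripts. In the dimmest 25% by mean level, 3.44% were higher and 2.07% lower. In the next 3 groups of equal size by level, from dim to bright, 17.6%, 21.0% and 15.8% were higher and 7.70%, 14.1% and 11.8% lower. The excess of higher calls depended on scaling, since higher calls were 61.9% of calls as deposited, 50.4% after quantile normalization and 29.4% after median centring, which moved the median difference of all transcripts from 0.04 to -0.26. Without E2F1DP replicate 3 the counts were 1903 higher and 1382 lower, and a model of the 8 compared arrays alone called 1218 and 750.

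**Figure D2:**
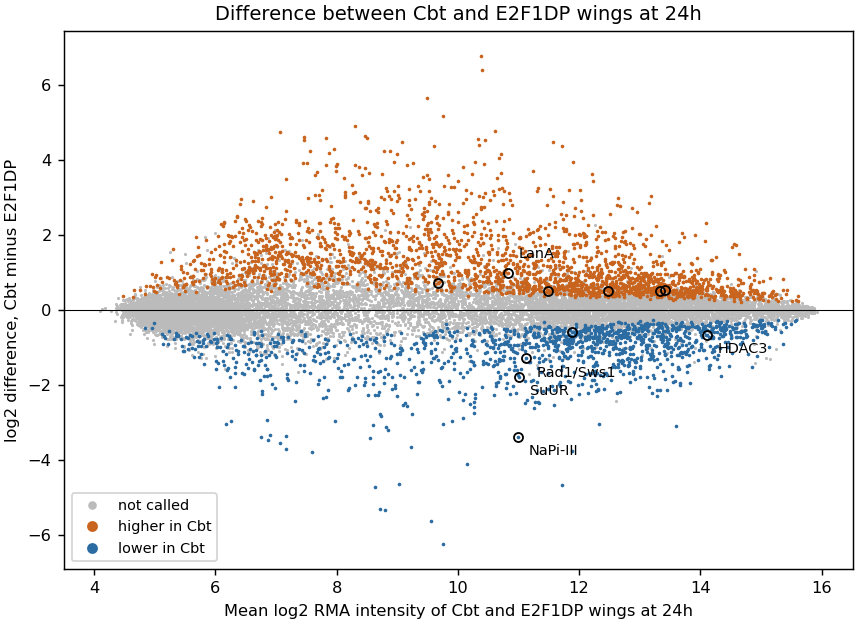
The log2 difference between Cbt and E2F1DP wings at 24h (y axis) against the mean log2 RMA intensity of both groups (x axis), 1 point per transcript. Orange points are the 2237 higher in Cbt, blue points the 1378 lower, grey points were not called, and circles mark the 11 named transcripts that passed. NaPi-III, at -3.37, has the largest difference of the named ones.

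In median level, the control strain sat nearer to Cbt than to E2F1DP for the transcripts that parted the lines. Over the 2237 transcripts higher in Cbt than in E2F1DP, the median level was 11.53 in Cbt, 10.26 in E2F1DP and 11.42 in control wings of 24h. Over the 1378 lower in Cbt it was 11.40 in Cbt, 12.37 in E2F1DP and 11.07 in control. The members were chosen on the Cbt and E2F1DP arrays and not on the control arrays. The median of the differences from control, taken transcript by transcript, was 0.11 for Cbt and -0.75 for E2F1DP in the set that was higher, and 0.11 for Cbt and 0.95 for E2F1DP in the set that was lower. Against the same control arrays, 1209 transcripts passed in Cbt (7.81%) and 4171 in E2F1DP (27.0%). These 2 comparisons share their control arrays. Cbt was called above control for 375 and below it for 78 of the 2237, and for 245 and 46 of the 1378. Over all 15473 transcripts it was above for 924 and below for 285. E2F1DP was called below control for 1477 and above it for 38 of the 2237, and above for 1112 and below for 6 of the 1378. Higher calls were 76.4% of the Cbt calls and 46.0% of the E2F1DP calls, and 53% and 58.0% after median centring. The Cbt count was 392 when the model held a term for the slide and 443 when only the compared groups were fitted, which gave 2186 for E2F1DP.

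SuUR, which keeps late-replicating heterochromatin under-replicated in polytene chromosomes, had levels of 10.30, 10.23, 9.80 and 10.10 in Cbt wings, against 11.79, 11.79, 11.66 and 12.35 in E2F1DP wings. All E2F1DP arrays were above all Cbt arrays, and the control arrays, at 10.41, 9.95, 8.67 and 10.68, spread around the Cbt values. The difference was -1.79 (SE 0.254, limma adjusted p = 2.86e-06), which is 3.46-fold. HDAC3, a histone deacetylase, stood at 13.62, 13.65, 13.99 and 13.84 in Cbt wings and at 14.37, 14.39, 14.56 and 14.41 in E2F1DP wings. Its groups again did not overlap, and its control arrays lay at 13.69, 13.50, 13.71 and 13.68. The difference of -0.65 (SE 0.110, adjusted p = 3.64e-05) is 1.57-fold. His4r, a histone H4 gene outside the main histone cluster, averaged 11.05 ± 0.491 in Cbt and 11.36 ± 0.427 in E2F1DP (SD, n = 4 each) and did not pass (adjusted p = 0.548). Kismet (kis), a chromatin remodeller of the CHD family, averaged 13.44 and 13.59 and did not pass either (adjusted p = 0.636).

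The transcript that carries Rad1 as its main and Sws1 as its upstream frame had the lowest adjusted p of the 44 named transcripts. Rad1 is part of the 9-1-1 clamp that the DNA damage checkpoint loads at damaged sites. Its levels were 10.48, 10.44, 10.49 and 10.54 in Cbt wings, against 11.61, 11.63, 11.86 and 11.96 in E2F1DP wings. Control wings had 10.09, 9.97, 9.55 and 10.00, so that the Cbt arrays lay between the other groups and none of the 3 groups overlapped. Cbt was lower than E2F1DP by a log2 difference of -1.28 (SE 0.136, limma adjusted p = 2.37e-08), or 2.42-fold. Beside the shared control arrays, the differences were 0.59 for Cbt (SE 0.136, adjusted p = 0.00441) and 1.87 for E2F1DP (SE 0.136, adjusted p = 5.8e-12). The files report on the whole transcript and cannot tell which frame is read.

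NaPi-III, named as a sodium-phosphate cotransporter of type III, had 9.32, 9.27, 9.75 and 8.91 in Cbt wings, against 12.86, 12.75, 12.38 and 12.74 in E2F1DP wings. The groups lay far apart, and of the control arrays, at 8.25, 8.79, 6.42 and 9.02, 3 were below all Cbt arrays. The difference of -3.37 (SE 0.398, limma adjusted p = 1.38e-07) is 10.4-fold, the largest of the named transcripts. Fatp1, a fatty acid transport protein, was slightly higher in Cbt, with 11.57, 11.65, 12.02 and 11.75 against 11.23, 11.24, 10.94 and 11.51 in E2F1DP wings. Its groups did not overlap, but the difference of 0.52 (SE 0.170, adjusted p = 0.0243) fell to 0.22 after median centring (adjusted p = 0.366). The call held in 13 of 21 alternatives. It also ended after quantile normalization (adjusted p = 0.0565), with a slide term (0.145) and with only the compared groups (0.0999). With the 12 arrays of 24h alone (adjusted p = 0.111), or without E2F1DP replicate 3 (0.0978) or Cbt replicate 3 (0.0958), it ended too.

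LanA, the laminin alpha chain of basement membranes, was higher in Cbt. It stood at 11.19, 10.87, 11.73 and 11.51 in Cbt wings, against 10.10, 10.30, 10.56 and 10.34 in E2F1DP wings, a difference of 1.00 (SE 0.208, limma adjusted p = 0.000508). Every Cbt array lay above every E2F1DP array, and the control arrays, at 10.78, 11.19, 11.31 and 11.87, covered the Cbt range. LanA was the only gene of the adhesion and matrix list that was tied to an ID. The transcript fend differed by 0.72 (SE 0.240, adjusted p = 0.0281), with 10.12, 10.13, 10.19 and 9.65 in Cbt wings and 9.25, 9.11, 9.93 and 8.94 in E2F1DP wings. Its groups overlapped, and the call held in 10 of 21 alternatives. It ended after median centring (0.42, adjusted p = 0.232) and when any one of the compared arrays other than E2F1DP replicate 3 or Cbt replicate 4 was left out. The fend call also ended after quantile normalization (adjusted p = 0.223) and with a slide term (0.0527). So it did with only the compared groups (0.0941) and only the 12 arrays of 24h (0.0844). CG16974 was higher in Cbt by 0.52 (SE 0.145, adjusted p = 0.00755), with groups that overlapped and a call that held in 17 of 21 alternatives. That call ended after median centring (0.22, adjusted p = 0.266) and with a slide term (adjusted p = 0.0654). Only the compared groups (adjusted p = 0.0981) or only the 12 arrays of 24h (0.0785) ended it too.

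Wdr24, mio and Uba1, genes of nutrient signalling and protein turnover, did not pass in the main model of the deposited values. Wdr24 and mio encode subunits of GATOR2, a complex that relays amino acid supply to the growth kinase TOR. Wdr24 had 11.82, 11.93, 12.43 and 12.33 in Cbt wings and 12.55, 12.15, 12.72 and 12.90 in E2F1DP wings, a difference of -0.45 (SE 0.178, limma adjusted p = 0.0658). The groups overlapped, and median centring gave -0.75 (adjusted p = 0.0042). Wdr24 also passed after quantile normalization (adjusted p = 0.025) and with a term for the position on the slide (0.0439). It passed too without E2F1DP replicate 2 (0.0171) or Cbt replicate 3 (0.0337). E2F1DP exceeded control by 0.82 for Wdr24 (adjusted p = 0.000677). Uba1, the enzyme that activates ubiquitin, differed by -0.38 (SE 0.160, adjusted p = 0.0854) and after median centring by -0.68 (adjusted p = 0.010). It passed narrowly without E2F1DP replicate 2 (adjusted p = 0.0415), Cbt replicate 3 (0.0439) or Cbt replicate 4 (0.0499). For Uba1, E2F1DP exceeded control by 0.67 (adjusted p = 0.0018). The mean levels of mio were 9.04 in Cbt and 8.89 in E2F1DP (adjusted p = 0.720). The nucleolar protein gene sle had 12.03, 12.02, 12.03 and 12.04 in Cbt wings, 12.44, 12.28, 12.41 and 12.50 in E2F1DP wings and 11.25, 10.94, 11.06 and 11 in control wings. Its groups did not overlap and Cbt was the middle one, but the difference between the transgene lines of -0.38 (SE 0.197) did not pass (adjusted p = 0.187, or 0.0221 after median centring). That SE rests on the spread in all groups of the model. The SD of sle was 0.00932 in Cbt and 0.0929 in E2F1DP at 24h, and 0.691 in Cbt at 36h. Both lines exceeded control, Cbt by 0.97 (adjusted p = 0.00114) and E2F1DP by 1.34 (adjusted p = 3.29e-06). The other uncalled genes tied to 1 ID were alpha-Spec, rdx, Dyrk3 and CG31178, with adjusted p between 0.323 and 0.840.

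Of the 17 transcripts tied to 1 gene, 4 were higher and 3 lower in Cbt, with a median difference of 0.11 against 0.04 over all transcripts. Of the 27 tied to several genes, 2 were higher and 2 lower, with a median of -0.02. Together 25% of the 44 passed, close to the 23.4% of all transcripts. Beside Rad1/Sws1, the called members of the 27 were CG5116/CG42488, CG9288/CG42375 and CG6191/CG45088. CG5116/CG42488 had 11.56, 11.78, 11.40 and 11.63 in Cbt wings, against 12.06, 11.93, 12.48 and 12.23 in E2F1DP wings (difference -0.58, SE 0.134, limma adjusted p = 0.00142). All Cbt arrays were below all E2F1DP arrays, and a model of the compared groups alone ended the call (adjusted p = 0.0614). CG9288/CG42375 was higher in Cbt by 0.53 (adjusted p = 0.00568) and CG6191/CG45088 by 0.52 (adjusted p = 0.0213), and median centring ended both calls (adjusted p = 0.358 and 0.377). Both also ended with only the compared groups (adjusted p = 0.0948 and 0.178) and with only the 12 arrays of 24h (0.0568 and 0.166). The groups of CG6191/CG45088 overlapped, and its call held in 13 of 21 alternatives. It ended with a slide term (adjusted p = 0.0823) and without E2F1DP replicate 1 or 2 or Cbt replicate 3 or 4 (adjusted p between 0.0734 and 0.104).

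Other transcripts of the 27 carry mitochondrial, transcription and membrane anchor genes. Tim10/CG42497, whose main frame is a chaperone of mitochondrial protein import, averaged 14.57 ± 0.241 in Cbt and 14.36 ± 0.538 in E2F1DP (SD, n = 4 each). CG31917/Tfb5, with a subunit of the general transcription factor TFIIH as its upstream frame, averaged 14.44 and 14.45. Mocs2B/Mocs2A, the subunits of molybdopterin synthase, averaged 12.87 and 12.61, and PIG-P/Tcs6, with a gene of GPI anchor synthesis, 14.61 and 14.58. None of these passed (limma adjusted p between 0.462 and 0.975). Mettl5/CG42374, with an RNA methyltransferase gene, was at the edge, at -0.50 (adjusted p = 0.0504). It passed with the replicate block (adjusted p = 0.0361), after quantile normalization (0.0203) and after median centring (-0.80, adjusted p = 0.00546). CG10570/CG42502 had 10.45, 10.45, 11.06 and 10.15 in Cbt wings and 10.14, 9.78, 7.81 and 8.53 in E2F1DP wings, with 7.66, 9.36, 5.97 and 7.87 in control wings. Its Cbt arrays lay above the others without overlap, though narrowly, and the difference between the lines of 1.46 (SE 0.556) did not pass (adjusted p = 0.0567). Cbt exceeded control by 2.81 (SE 0.556, adjusted p = 0.000816), and without E2F1DP replicate 1 or 2 the difference between the lines passed (adjusted p = 0.0247 and 0.0408).

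**Figure D3:**
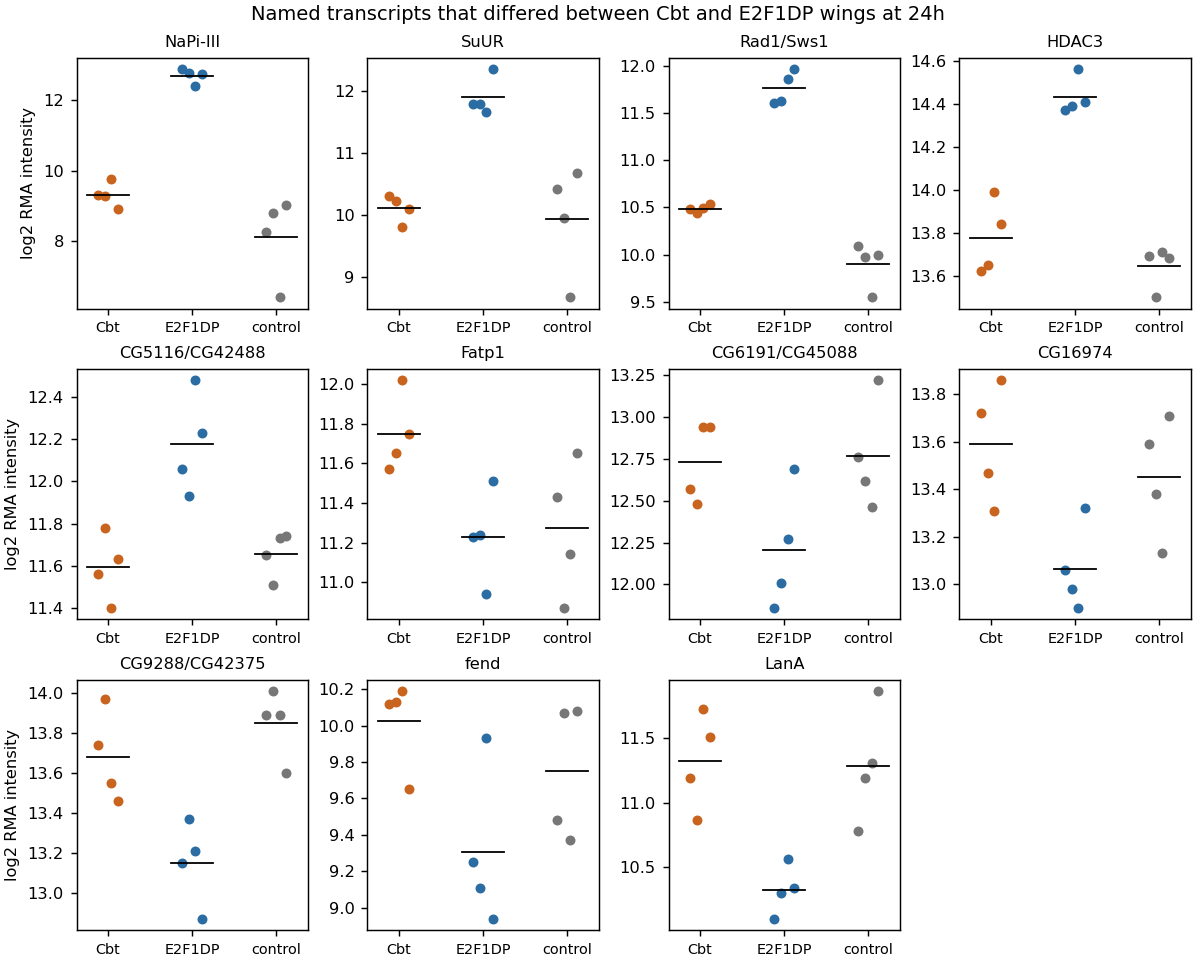
The log2 RMA intensity (y axis, a separate range in each panel) of the 11 named transcripts that differed between Cbt and E2F1DP wings at 24h, ordered from the most negative to the most positive difference. Points are the 4 arrays of Cbt, E2F1DP and control, and lines are group means. In the panels of NaPi-III, SuUR, Rad1/Sws1, HDAC3 and CG5116/CG42488 all E2F1DP arrays lie above all Cbt arrays.

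Array names share numbers that were taken here as slides, which no label states. On that reading Cbt replicate 3 and E2F1DP replicate 1 shared slide 9, the only slide with both groups. The difference on that slide alone, a value with no test, was -1.98 for SuUR, -3.12 for NaPi-III, -1.12 for Rad1/Sws1, -0.38 for HDAC3, -0.66 for CG5116/CG42488 and 1.62 for LanA. It was 0.80 for Fatp1, 0.94 for fend, 0.25 for CG16974, 0.40 for CG9288/CG42375 and 1.08 for CG6191/CG45088. Each of the 11 called transcripts kept its direction there, but both arrays also entered the calls. Where the groups did not overlap, the direction on the slide was fixed in advance, so it is no separate check. With a term for the slide, which the other groups link, 1520 transcripts were higher and 1033 lower in Cbt, and 2470 of these 2553 had the same call without it.

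Among calls without overlap, the 15 most raised in Cbt differed by 4.49 to 6.79 and the 15 most lowered by 3.38 to 6.24. None is tied to a gene name. In each set of 15, 7 had a mean in the lower line within the range of the dimmest 25% of transcripts (under 6.20), where the size of a difference is not exact. FBtr0083935, the most raised, had 13.49, 13.70, 13.69 and 14.23 in Cbt wings, against 7.0, 6.88, 6.62 and 7.46 in E2F1DP wings. Control wings had 12.50, 12.32, 12.73 and 12.75, near Cbt. Over L3, 24h and 36h its means were 5.19, 13.78 and 13.12 in Cbt, 4.64, 6.99 and 11.90 in E2F1DP and 5.25, 12.57 and 8.69 in control, so its high level came after 24h in E2F1DP wings.

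FBtr0077115 showed another pattern, with 13.24, 13.29, 13.95 and 13.92 in Cbt wings, 7.23, 7.16, 8.05 and 6.32 in E2F1DP wings and 7.64, 7.95, 7.62 and 9.62 in control wings. Cbt alone was high, and it was so at each stage, with Cbt means of 13.09, 13.60 and 13.50 at L3, 24h and 36h against E2F1DP means of 6.71, 7.19 and 7.31. At the other end, FBtr0084913 had 6.43, 6.71, 6.37 and 7.03 in Cbt wings, against 13.53, 13.20, 12.73 and 12.04 in E2F1DP wings. Control wings were as low as Cbt, at 6.81, 6.25, 5.86 and 6.58. FBtr0074485 had 6.83, 6.74, 6.77 and 6.61 in Cbt wings and 12.53, 12.47, 11.67 and 12.80 in E2F1DP wings. Its Cbt mean had been 11.29 at L3 and its control mean 11.33, so that it stayed high only in E2F1DP of the 3 lines.

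Control development gave an ordering of transcripts by a difference between other arrays, although the arrays of 24h entered the variance of the shared model. From L3 to 36h, 7052 transcripts changed in control wings (45.6%), 3320 rising and 3732 falling. Of those that rose, 1261 were higher in Cbt than in E2F1DP at 24h and 70 lower, 38.0% and 2.11% against 14.5% and 8.91% of all transcripts. Of those that fell, 987 were lower in Cbt and 302 higher, 26.4% and 8.09%. The median Cbt minus E2F1DP difference was 0.44 in the rising set, -0.21 in the falling set and 0.04 over all transcripts. Taken relative to the median of all transcripts, these were 0.40 and -0.25 as deposited, 0.42 and -0.27 after median centring and 0.31 and -0.29 without E2F1DP replicate 3.

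**Figure D4:**
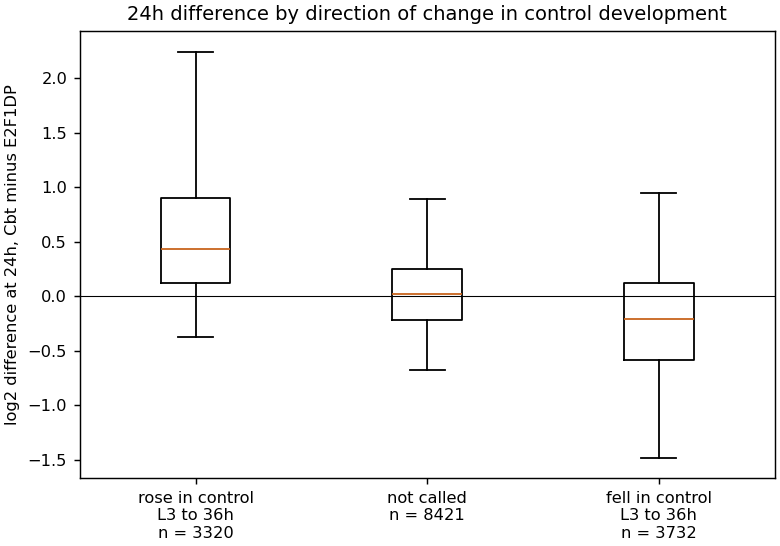
The log2 difference at 24h, Cbt minus E2F1DP (y axis), of transcripts that rose, were not called or fell in control wings from L3 to 36h. Boxes span the quartiles with the median as a line, and whiskers reach percentiles 5 and 95. The medians are 0.44, 0.02 and -0.21.

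Transcripts with large developmental changes were also followed array by array. For the 1026 that rose at least 4-fold in control from L3 to 36h, the median gain over the control level of L3 was 2.40, 2.10, 1.86 and 2.24 in the Cbt arrays of 24h and 0.94, 1.07, 0.64 and 1.1 in the E2F1DP arrays. In the control arrays of 24h it was 2.48, 2.08, 1.91 and 2.71, which overlaps Cbt and lies above E2F1DP. For the 817 that fell at least 4-fold, the median change was -1.46, -1.35, -1.31 and -1.75 in Cbt, -0.71, -0.89, -1.08 and -0.92 in E2F1DP and -2.30, -2.25, -2.64 and -1.98 in control. Here Cbt lay between the others without overlap. In the values as deposited, Cbt arrays thus overlapped control for transcripts that rise and had moved less than control for those that fall. E2F1DP arrays had moved less than control for both. Array medians at 24h ran from 9.79 to 10.02 in Cbt and from 9.28 to 10.02 in control. The gains of each array were not recomputed after centring, so the contrast between the rising and falling sets in Cbt may depend on scaling.

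Of the 5 named transcripts that were lower in Cbt than in E2F1DP wings, 4 fell in control development, a share near the 71.6% of all lower calls. From L3 to 36h in control, NaPi-III changed by -4.19 (limma adjusted p = 3.14e-10), Rad1/Sws1 by -2.41 (adjusted p = 5.1e-15), HDAC3 by -0.84 (adjusted p = 1.79e-07) and CG5116/CG42488 by -1.51 (adjusted p = 7.37e-11). SuUR was the exception, at -0.08 (adjusted p = 0.830). Of the 6 named transcripts that were higher in Cbt, Fatp1 (2.80), CG16974 (1.04) and CG6191/CG45088 (0.68) rose in control, fend was not called (-0.27), and LanA (-2.52) and CG9288/CG42375 (-0.55) fell. Among all higher calls, 56.4% rose and 13.5% fell in control.

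The same comparison on other arrays, at 36h, gave 1888 transcripts higher (12.2%) and 1746 lower (11.3%) in Cbt, 23.5% in all. Of the 2237 higher at 24h, 1108 (49.5%) were higher and 20 lower at 36h, and these 1108 are 58.7% of the higher calls at 36h. Of the 1378 lower at 24h, 937 (68.0%) were lower and 20 higher, and these 937 are 53.7% of the lower calls at 36h. The median difference at 36h was 0.56 over the set higher at 24h and -0.82 over the set lower at 24h. Across the 15473 transcripts the differences at 24h and 36h correlated at 0.637 and those at 24h and L3 at 0.402, which is across transcripts of the same lines and not across replicates.

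**Figure D5:**
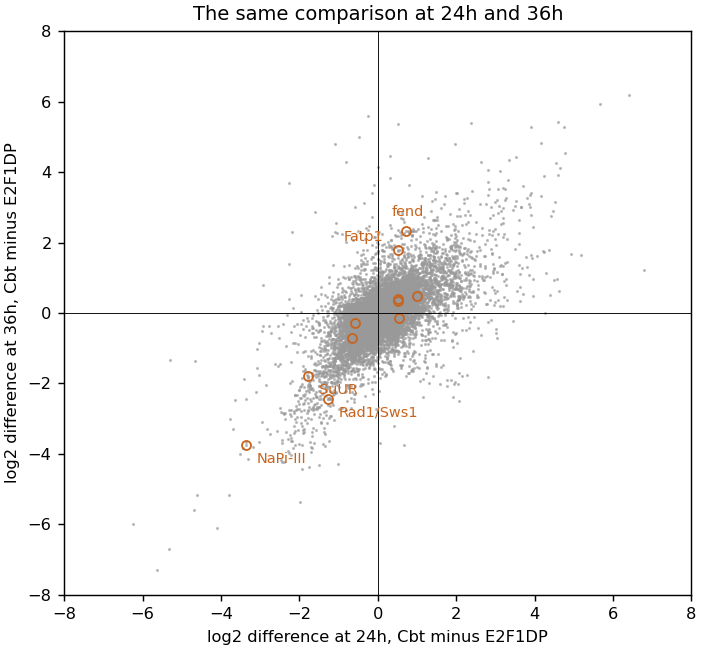
The log2 difference Cbt minus E2F1DP at 36h (y axis) against that at 24h (x axis), 1 grey point per transcript. Orange circles are the 11 named transcripts called at 24h. NaPi-III, SuUR and Rad1/Sws1 lie below 0 on both axes, and fend and Fatp1 lie higher at 36h than at 24h.

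Of the 5 named transcripts lower in Cbt at 24h, 4 were also lower at 36h. SuUR differed by -1.79 (SE 0.254, limma adjusted p = 2.53e-06) at 36h, HDAC3 by -0.72 (SE 0.110, adjusted p = 8.76e-06) and NaPi-III by -3.76 (SE 0.398, adjusted p = 1.31e-08). CG5116/CG42488 differed by -0.28 and did not pass (adjusted p = 0.150). Rad1/Sws1 differed by -2.43 (SE 0.136, adjusted p = 3.57e-14), with mean levels of 9.35 in Cbt, 11.78 in E2F1DP and 9.29 in control at 36h. The test of the change from 24h to 36h passed for Rad1/Sws1 (-1.15, SE 0.193, adjusted p = 0.000357), for fend (1.63, SE 0.339, adjusted p = 0.00321) and for Fatp1 (1.28, SE 0.240, adjusted p = 0.00124). Fatp1 reached 13.27 ± 0.433 in Cbt wings of 36h and 11.47 ± 0.174 in E2F1DP wings (SD, n = 4 each), against 13.78 ± 0.191 in control. LanA differed by 0.48 (adjusted p = 0.0993) at 36h, and its change between the stages did not pass (adjusted p = 0.440). Tgs1/moi, with the cap trimethylating enzyme and a telomere capping protein, and Tcs1/Polr3K, with a subunit of RNA polymerase III, were not called at 24h (-0.17 and -0.29, adjusted p = 0.310 and 0.223) and were lower in Cbt at 36h (-0.45 and -0.71, adjusted p = 0.00357 and 0.00145). After median centring both were lower in Cbt at 24h too (-0.47 and -0.60, adjusted p = 0.00597 and 0.00994), and their change between the stages did not pass (adjusted p = 0.462 and 0.425).

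In larvae, with 4 Cbt and 3 E2F1DP arrays, 205 transcripts were higher (1.32%) and 115 lower (0.743%) in Cbt, 2.07% in all. The shared model uses 1 spread per transcript for all stages. Larval E2F1DP arrays varied around their group mean with an SD of 0.184 to 0.203, against 0.325 to 0.682 at 24h. With only the compared groups fitted, 1143 passed at L3 and 1968 at 24h, against 320 and 3615 in the shared model. This count of 320 was not stable: it was 98 with a slide term, 173 without E2F1DP replicate 1 of L3, 182 without replicate 3, 212 without replicate 2, 1143 with only the compared groups and 2089 with array weights. The higher and lower calls were 155 and 169 after median centring and 1024 and 1065 with array weights. Of the 2237 transcripts higher at 24h, 170 were higher at L3, which is 7.60% of the set and 82.9% of the higher calls of L3. Of the 1378 lower at 24h, 79 were lower at L3, 5.73% of the set and 68.7% of the lower calls of L3. At all 3 stages 132 transcripts were higher and 64 lower in Cbt. The change of the difference from L3 to 24h passed for 905 transcripts (5.85%) and that from 24h to 36h for 637 (4.12%). A slide term gave 242 and 177, and array weights gave 2382 and 974. Leaving out E2F1DP replicate 2 of L3 gave 572 for the first change, and fitting only the compared groups gave 371 for the second. Positive changes were 63.6% and 32.8% of the calls, and 38.7% and 66.2% after median centring. The change from L3 to 24h passed for NaPi-III (-2.36, SE 0.586, limma adjusted p = 0.0125), for Rad1/Sws1 (-0.84, SE 0.201, adjusted p = 0.00913) and for CG5116/CG42488 (-0.67, SE 0.197, adjusted p = 0.0391). None of these 3 passed once a slide term was added (adjusted p = 0.206, 0.179 and 0.351). SuUR already differed at L3, by -1.05 (SE 0.274, adjusted p = 0.0350), and its change to 24h did not pass (adjusted p = 0.309).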

How the data were processed

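Total RNA of wings was labelled with Cy3 and measured on 35 NimbleGen arrays in 9 groups of line and stage, 8 of them in the comparison made here. The authors deposited RMA values, per the submitters' processing notes: an intensity on a linear scale per transcript and array, and a series table of the same values as log2 numbers (largest difference 5e-09). RMA as usually run corrects background, equalises distributions and summarises the probes of a transcript, but array medians from 9.25 to 10.02 show that the 35 arrays do not share 1 distribution. Its version, its settings and the annotation release are not given in the sources used here. Intensities ran from 14.6 to 64595, with no detection call, and precision is limited by how many arrays there are. No array was a copy of another (root mean square difference at least 0.31 log2).

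The log2 series table was fitted with 1 linear model of 9 group means in R 4.3.3 with limma 3.58.1 (26 residual and 2.86 prior degrees of freedom), with Benjamini-Hochberg adjustment over 15473 transcripts and a threshold of 0.05. The code of the fit was run on simulated data with independent arrays and 1 spread per transcript for all groups. That run held no array effects, so it cannot show how the calls fare where arrays differ in spread or median. Python 3.11.15 with scipy 1.17.1 gave the exact permutation test. Slides are an assumption, from a number shared by array names. Of 315 entries in 22 gene lists, 2 (LanA and His4r) had an ID, so lists were not tested. Named were all transcripts tied to 1 gene, 2 unnamed IDs each way with the largest difference among calls without overlap, and, beyond that rule, all 27 tied to several genes. The comparison, lists and tests were chosen with earlier results of these data known.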

Additional observations from a re-analysis of the deposited data

Results flagged for a closer look

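In 9 of 144 groups of 4 arrays, over the 48 transcripts given by name or ID, 1 array lay far from the other 3, where chance flags about 1 in 20 groups, or 7.2. The arrays were Cbt replicate 4 for fend (9.65) and alpha-Spec (13.67), E2F1DP replicate 3 for rdx (13.98) and CG8026/CG45085 (10.85), and E2F1DP replicate 4 for CG30100/CG42372 (11.94). In control wings they were replicate 2 for HDAC3 (13.50) and CG31178 (7.68), replicate 3 for lmgB/lmgA (12.54) and replicate 4 for FBtr0077115 (9.62). Of the 9, 3 fell on replicate 3 of E2F1DP or control, the arrays that stood apart.

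The Cbt minus E2F1DP difference itself changed between stages for these transcripts, by limma's test of the change. With a slide term the changes of NaPi-III, Rad1/Sws1 and CG5116/CG42488 from L3 to 24h did not pass (adjusted p = 0.206, 0.179 and 0.351), nor did that of FBtr0074485 from 24h to 36h (adjusted p = 0.498). From L3 to 24h it changed by -2.36 for NaPi-III, -0.84 for Rad1/Sws1, -0.67 for CG5116/CG42488, 6.24 for FBtr0083935 (adjusted p = 7.79e-09), -3.59 for FBtr0084913 (adjusted p = 1.2e-07) and -4.07 for FBtr0074485 (adjusted p = 3.05e-06). From 24h to 36h it changed by 1.63 for fend, 1.28 for Fatp1, -1.15 for Rad1/Sws1, -5.56 for FBtr0083935 (adjusted p = 6.01e-08) and -1.66 for FBtr0074485 (adjusted p = 0.0420).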

How the results depend on the processing

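With only the compared groups in the model, 1968 transcripts passed between Cbt and E2F1DP at 24h, 443 between Cbt and control and 2186 between E2F1DP and control, and at L3 1143 passed and for the change from 24h to 36h 371. The 12 arrays of 24h alone gave 2120. With the slide as a term the counts were 392 for Cbt against control, 98 at L3, 242 for the change from L3 to 24h and 177 for that from 24h to 36h. Array weights gave 2089 at L3, 2382 and 974 for the changes. The cause was not tested. Leaving out 1 array at a time gave 3093 to 3775 calls for the main comparison, 849 to 1388 for Cbt against control, 3677 to 4516 for E2F1DP against control, 173 to 254 at L3 (main 320; lowest without E2F1DP replicate 1 of L3, with 182 without replicate 3 and 212 without replicate 2), 3109 to 3607 at 36h, 572 to 1059 for the change from L3 to 24h (lowest without E2F1DP replicate 2 of L3) and 511 to 676 for that from 24h to 36h. The place difference ran from 0.221 to 0.256, with an exact p of 0.0571 that 3 against 4 arrays cannot pass. Deviations of same-numbered arrays correlated at 0.305, 0.260, 0.0357 and 0.434 and of others at -0.370 to 0.240. Since replicate 3 was under 0.1 and no label states a pairing, the numbers were not used as pairs, and the replicate block gave 3778 calls. Without replicate 3 of both E2F1DP and control, an alternative chosen after seeing the data, 3501 passed. For the named transcripts called between Cbt and E2F1DP at 24h, no difference changed sign in the alternatives run. Over all transcripts, 2587 of the 3615 calls kept their call and direction after median centring. The balance of higher and lower calls turned with median centring.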
